A study of Nicotiana tabacum with 6 samples.

Results

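The genes described here encode parts of the photosynthetic machinery that lie on the inner, lumenal side of the thylakoid membrane, and all are nuclear genes. They are PSBO, PSBP, PsbQ and PSBR of photosystem II and PETE, the plastocyanin gene. They were taken by gene symbol from the annotation of the Affymetrix tomato GeneChip, which gave 5 genes with 1 probe set each, out of 10101 probe sets tested and 10209 in the table. The identifiers of the tomato genes are 544299 for PSBO, 544077 for PSBP, 543931 for PsbQ, 778297 for PSBR and 544053 for PETE. Leaf RNA came from tobacco (Nicotiana tabacum, cultivar Petit Havanna in the labels' spelling) of 3 genotypes with 2 arrays each: a psaA deletion mutant, a psbA deletion mutant and normal plants, called wild type below. The growth text, given alike for all 6 samples, describes tissue culture bottles, dim light, a cycle of 16 h light and 8 h dark, and medium with spectinomycin at 500 mg/L, with leaves taken 2 to 3 weeks after subculture. Whether wild type was in fact grown on the drug is unclear, so drug and deletion cannot be told apart in comparisons with wild type. The labels name the 2 arrays of each genotype as biological replicates, without saying how many plants or mutant lines they came from. The p-values rest on the spread between replicate arrays, moderated toward the spread seen over all tested probe sets.

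Photosystem II takes electrons from water at a manganese cluster bound largely by the D1 protein, which psbA encodes in the plastid. PSBO, PSBP and PsbQ are the extrinsic proteins that cover this cluster and form the oxygen-evolving complex of plants, and PSBR is a small photosystem II protein that, in Arabidopsis, is needed for stable attachment of PSBP. Electrons then pass through the cytochrome b6f complex to plastocyanin, the soluble copper protein made from PETE, and from there to photosystem I, whose reaction centre is built on the plastid-encoded psaA and psaB proteins. The psaA mutant therefore lacks a core protein downstream of plastocyanin, and the psbA mutant one upstream of it.

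The deposited values are on a log scale taken as base 2, and each probe set has a median of 0 over the 6 arrays. They show differences between arrays but no signal level, so leaf identity could not be checked against levels of leaf genes, nor could 1 gene's level be set against another's. Where a genotype's arrays are the middle pair of the 6, the centring itself places them evenly around 0. Tobacco RNA was read with tomato probes, and the tobacco gene table lists 2 genes under the name PSBO, 2 under PsbQ, 1 under PSBP, 1 under PSBR and 0 under PETE. A probe set may therefore report more than 1 tobacco copy, in an unknown mix. No probe set used here carries the symbol psaA or psbA, so the deletions were not checked on the arrays.

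PSBO, the protein that stabilises the manganese cluster, had log2 values of -0.15 and -0.15 in the psaA deletion, 0.03 and -0.03 in the psbA deletion, and 0.53 and 0.54 in wild type. The 3 genotypes did not overlap, with the psaA deletion lowest and wild type highest. Replicate arrays lay close together, 0.0012 apart in the psaA deletion, 0.060 in the psbA deletion and 0.0038 in wild type, against medians over all tested probe sets of 0.120, 0.133 and 0.121.

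PSBP, an extrinsic protein that aids the binding of calcium and chloride at the cluster, stood at -0.21 and -0.35 in the psaA deletion, 0 and 0 in the psbA deletion, and 0.69 and 0.75 in wild type. Again each genotype kept to its own range. The psbA deletion arrays held the same value, which happened at 23 of the 10101 probe sets in that genotype.

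PsbQ, the third extrinsic protein, had -0.24 and -0.12 in the psaA deletion, 0.07 and -0.07 in the psbA deletion, and 0.86 and 0.75 in wild type. The mutants were separated by a gap of 0.05 between their nearest arrays, smaller than the distance between replicates, while 0.68 lay between the psbA deletion and wild type.

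PSBR covered the narrowest range of the 5 genes, 0.36 over all arrays, with -0.25 and -0.23 in the psaA deletion, 2.3e-05 and -2.3e-05 in the psbA deletion, and 0.07 and 0.11 in wild type. Here the psbA deletion lay nearer to wild type than to the psaA deletion. The other 4 genes showed the opposite placing, with the mutants close together and wild type far above.

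PETE had values of -0.03 and -0.20 in the psaA deletion, -0.05 and 0.03 in the psbA deletion, and 0.66 and 0.75 in wild type. The mutant arrays overlapped, and the highest of the 4 lay 0.63 under the lower wild-type array.

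**Figure D1:**
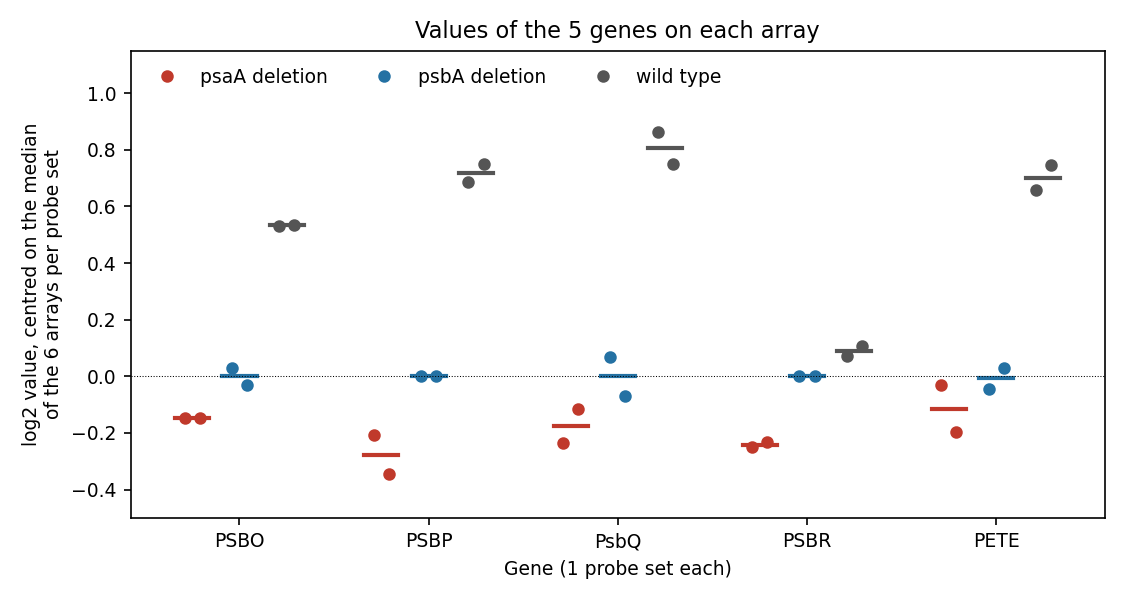
Log2 value on each array (vertical axis, centred per probe set on the median of the 6 arrays) for PSBO, PSBP, PsbQ, PSBR and PETE, with points for the 2 arrays of the psaA deletion, the psbA deletion and wild type and bars for their means. Wild type stands above both mutants in each gene, by 0.63 or more between the nearest arrays for PETE and by only 0.07 for PSBR against the psbA deletion.

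The first comparison was the psaA deletion minus wild type. PSBP, PsbQ, PETE and PSBO fell in the mutant, and PSBR did not pass the test. PSBP transcript was 1.99-fold lower than in wild type (log2 difference -0.995, SE 0.107, n = 2 arrays each) and PsbQ 1.98-fold lower (-0.98, SE 0.114), so that PSBP stood at 50.2% and PsbQ at 50.6% of the wild-type value. PETE was 1.76-fold lower (-0.82, SE 0.112) and PSBO 1.60-fold lower (-0.68, SE 0.102). In bulk leaf RNA, fewer cells of a type and less RNA per cell cannot be told apart.

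By limma's moderated test with Benjamini-Hochberg adjustment over all tested probe sets, 4 of the 5 genes were called lower at an adjusted p under 0.05 and 0 higher, where 6.06% of all tested probe sets were called lower. The adjusted p was 0.000757 for PSBP, 0.00103 for PsbQ, 0.00245 for PETE and 0.00378 for PSBO. The median log2 difference of the 5 genes was -0.82, beside a median of 0.02 over all probe sets, whose quartiles were -0.14 and 0.17. Only 1.57% of probe sets had a lower difference than PSBP, and 1.64% a lower one than PsbQ, 2.53% than PETE and 3.46% than PSBO.

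PSBR gave a log2 difference of -0.33 (SE 0.101, 95% interval -0.56 to -0.10) with an adjusted p of 0.0792 and an unadjusted p of 0.0104 in limma. Both mutant arrays nevertheless lay under both wild-type arrays, as they did in all 5 genes. That pattern was common across the array, with 24.9% of probe sets showing it. With arrays scaled instead on the poly-A spike-in controls, which put the median over all probe sets at -0.23, PSBR was called as well (-0.58, adjusted p = 0.0131), and 10.1% of probe sets still had a lower difference than it. The 4 calls held with each array left out in turn, with adjusted p up to 0.0355 (PSBO).

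The interval for PSBR did not reach those of PSBP (-1.24 to -0.75) and PsbQ (-1.24 to -0.72), and it overlapped those of PSBO (-0.91 to -0.45) and, narrowly, PETE (-1.07 to -0.56). Differences between genes were not tested, since probe sets can respond unequally to the same change.

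**Figure D2:**
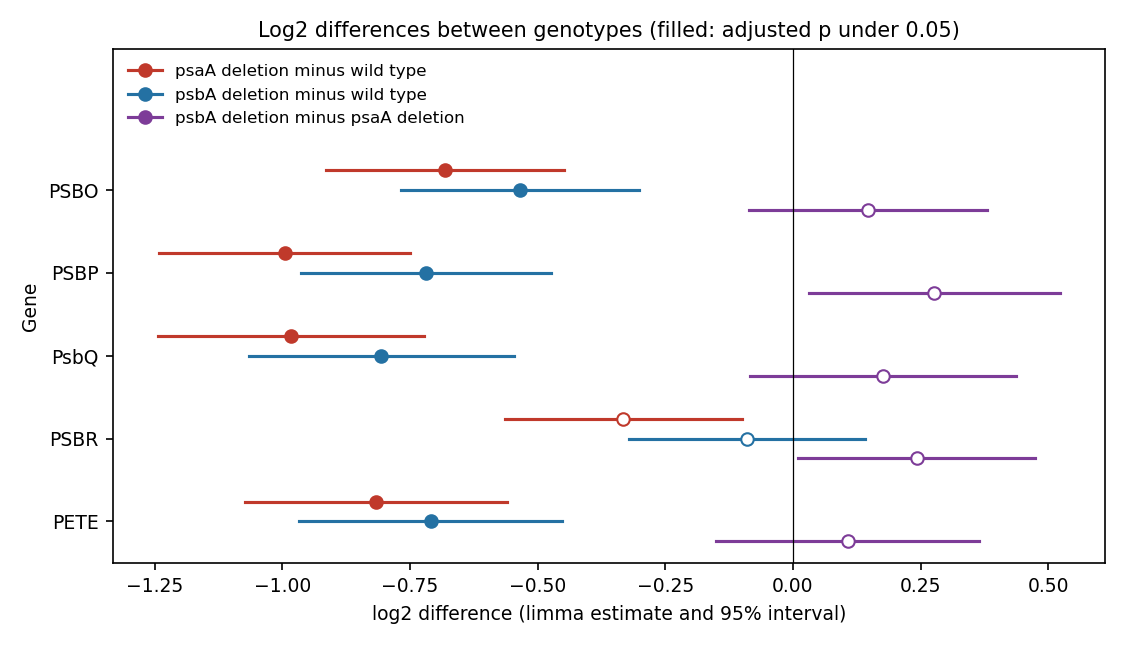
Log2 difference (horizontal axis) with limma's 95% interval for each gene in the psaA deletion minus wild type, the psbA deletion minus wild type and the psbA deletion minus the psaA deletion; filled points have an adjusted p under 0.05. PSBO, PSBP, PsbQ and PETE are filled in both comparisons with wild type, PSBR in neither, and no gene is filled between the mutants.

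PsbQ, PSBP, PETE and PSBO were also lower in the psbA deletion. In the psbA deletion minus wild type PsbQ was 1.75-fold lower (log2 difference -0.81, SE 0.114, n = 2 arrays each), PSBP 1.65-fold lower (-0.72, SE 0.107), PETE 1.64-fold lower (-0.71, SE 0.112) and PSBO 1.45-fold lower (-0.53, SE 0.102). This left between 57.2% (PsbQ) and 69.1% (PSBO) of the wild-type value. PSBR was not distinguishable from wild type, with -0.09 (SE 0.101, 95% interval -0.32 to 0.14, adjusted p = 0.655 in limma).

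Thus 4 of 5 genes were called lower and 0 higher, where 5.76% of all tested probe sets were called lower, and this comparison shares its wild-type arrays with the one above. Adjusted p in limma was 0.00319 for PsbQ, 0.00417 for PSBP, 0.00546 for PETE and 0.0121 for PSBO. The median over the 5 genes was -0.71, against 0.02 over all probe sets. A lower difference than that of PsbQ was found in 1.85% of probe sets, and one lower than that of PSBO in 4.64%. Both psbA deletion arrays were under both wild-type arrays in 5 of 5 genes, a placing that 24.3% of all probe sets had.

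The PSBO call was the least firm of the 4. It ended without psbA deletion replicate 2 (-0.50, adjusted p = 0.0598), without wild-type replicate 1 (-0.54, adjusted p = 0.0691) and without wild-type replicate 2 (-0.53, adjusted p = 0.0704), and the other 3 calls held with each array left out, with adjusted p up to 0.0477 (PETE). Poly-A scaling, which put the median over all probe sets at -0.47 in this comparison, gave -1.03 for PSBO, -1.21 for PSBP, -1.30 for PsbQ and -1.20 for PETE. It also called PSBR (-0.58, adjusted p = 0.00459), but 31.5% of probe sets had a lower difference than PSBR, and relative to the median its difference was -0.11.

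**Figure D3:**
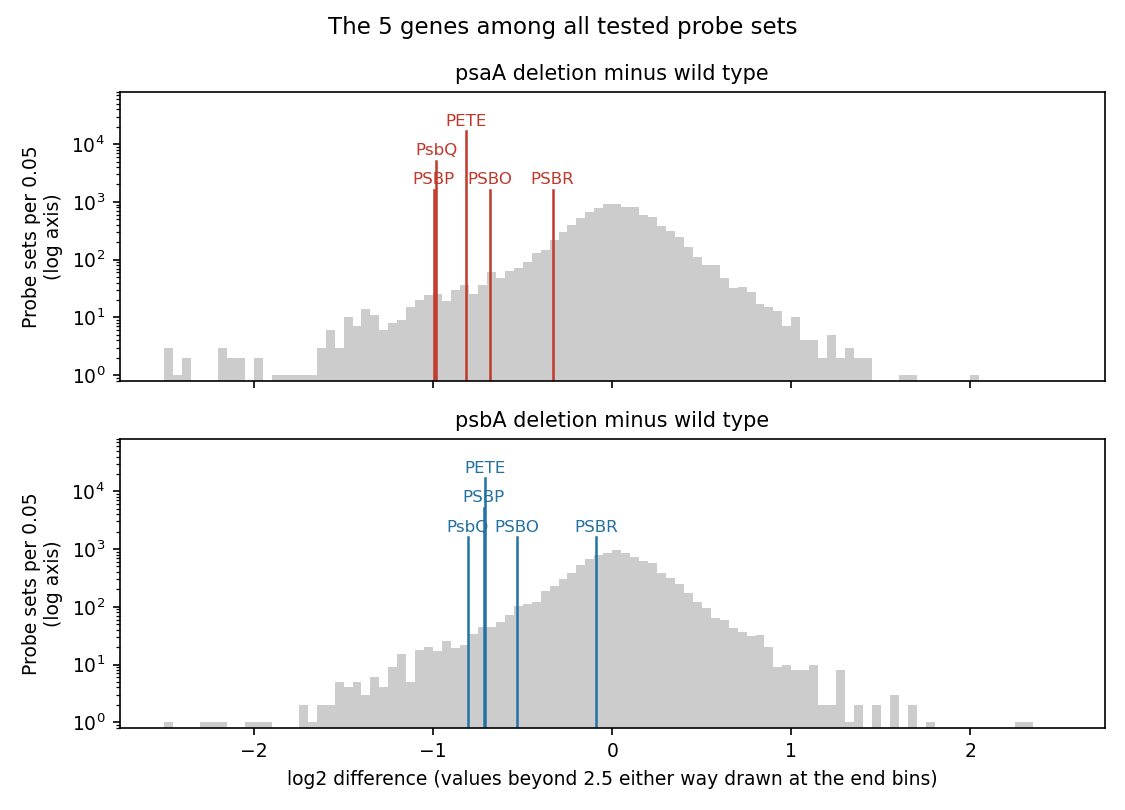
Number of probe sets (vertical axis, log scale) in steps of 0.05 of the log2 difference (horizontal axis) for the psaA deletion minus wild type and the psbA deletion minus wild type, with lines at PSBO, PSBP, PsbQ, PSBR and PETE. In both panels 4 lines lie in the lower tail and PSBR lies apart, at -0.33 in the psaA deletion and at -0.09, within the bulk, in the psbA deletion.

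Whether these genes differed between the mutants was tested by the psbA deletion minus the psaA deletion. The estimates were all above 0 with the deposited scaling, meaning higher values in the psbA deletion than in the psaA deletion, and none passed. The median over all tested probe sets was 0.02, and from 67.2% (PETE) to 88.8% (PSBP) of probe sets had a lower difference. PSBP gave 0.28 (SE 0.107, 95% interval 0.03 to 0.52, adjusted p = 0.221), PSBR 0.24 (SE 0.101, 0.01 to 0.47, adjusted p = 0.255), PsbQ 0.18 (SE 0.114, -0.08 to 0.44, adjusted p = 0.472), PSBO 0.15 (SE 0.102, -0.09 to 0.38, adjusted p = 0.511) and PETE 0.11 (SE 0.112, -0.15 to 0.36, adjusted p = 0.689).

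Limma thus called 0 of 5 genes in this comparison, with 2 (PSBP and PSBR) at an unadjusted p under 0.05, where 17.8% of all tested probe sets were under it, and no other tool was run. Over all tested probe sets 3.98% were called, 1.78% as higher and 2.20% as lower. The intervals leave room for a difference of up to 0.52 in PSBP, so equal values in the mutants were not shown. Single arrays moved some of these estimates both ways. PETE gave 0.19 without psaA deletion replicate 1 and 0.02 without psaA deletion replicate 2. It gave 0.14 without psbA deletion replicate 1 and 0.07 without psbA deletion replicate 2. PsbQ gave 0.12 without psaA deletion replicate 1 and 0.11 without psbA deletion replicate 1. Without replicate 2 of the psaA deletion PsbQ gave 0.24, and without that of the psbA deletion 0.25. PSBP ranged from 0.21 to 0.35 with 1 array left out. With poly-A scaling, which put the median over all probe sets at -0.22 here, the sign turned for PSBO (-0.10), PsbQ (-0.07), PETE (-0.14) and PSBR (-0.00084), and PSBP gave 0.03. Relative to that median the 5 genes remained between 0.09 and 0.26.

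In 4 of 5 genes, PETE being the exception, both psbA deletion arrays lay above both psaA deletion arrays, which 26.6% of probe sets also showed. The full order of genotypes, psaA deletion under psbA deletion under wild type with no overlap, held in these same 4 genes and in 5.24% of all probe sets.

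**Figure D4:**
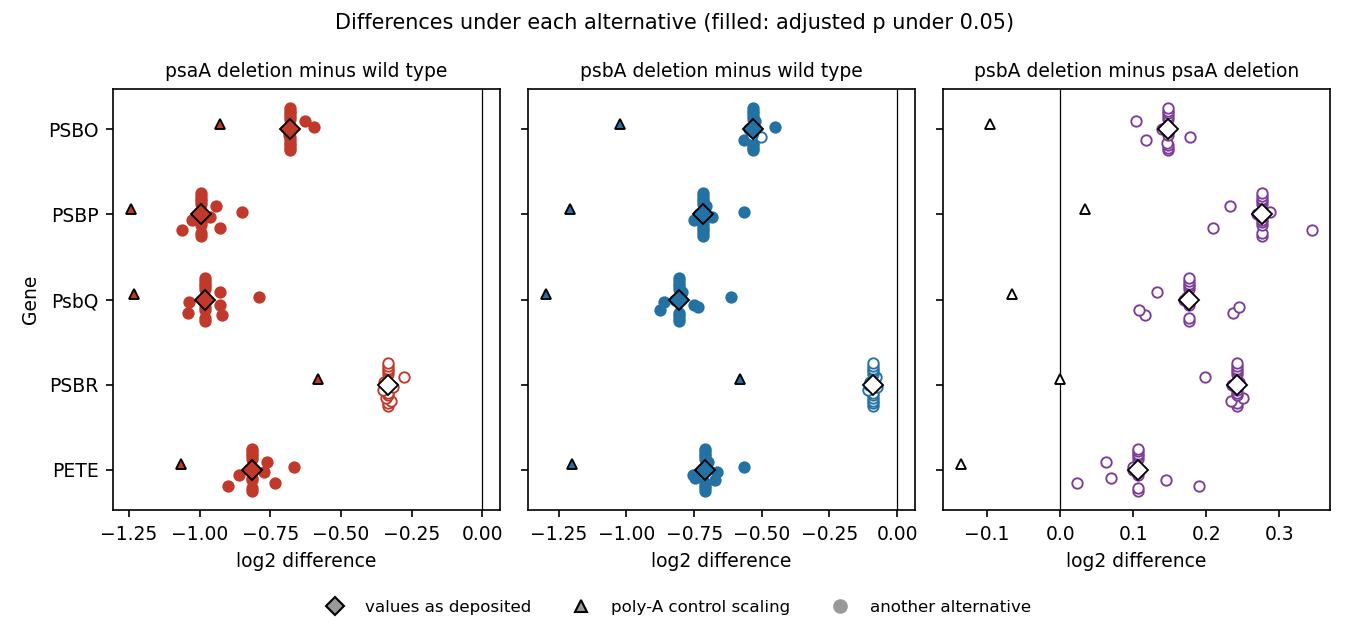
Log2 difference (horizontal axis, its range differing between panels) of each gene in the 3 comparisons with the values as deposited (diamond), with poly-A control scaling (triangle) and under the other alternatives (circles); filled symbols have an adjusted p under 0.05. Every symbol lies under 0 in both comparisons with wild type, while 4 of the 5 triangles between the mutants lie under 0 and the other symbols above it.

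Among themselves the genes were compared by the root-mean-square difference of their log2 values over the 6 arrays, given as a description without a test. PSBP and PETE had the most similar profiles, 0.098 apart, followed by PSBO and PETE (0.119) and by PSBP and PsbQ (0.125). PSBR stood away from the rest, 0.263 from PSBO and 0.420 from PsbQ.

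The same measure was used to find, for each gene, its nearest profiles among 625 other genes with a symbol. PSBP lay closest to VDE, the gene of the lumenal enzyme violaxanthin de-epoxidase (0.074, as the mean of 2 VDE probe sets). Next came GPAT, a glycerol-3-phosphate acyltransferase gene (0.085), and then PETE. The median distance from PSBP to all these genes was 0.475. PsbQ was nearest to GPAT (0.102), to GSA-AT, whose enzyme makes the chlorophyll precursor 5-aminolevulinate (0.105), and to HDS of the plastid isoprenoid pathway (0.117). PETE was nearest to GSA-AT (0.068), then to PSBP and then to SPE4 (0.114).

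PSBO had chMDH (0.067), the expansin gene exp9 (0.070) and CRTL-E-1, a lycopene epsilon-cyclase gene (0.077), as its closest profiles, with PETE ranked 11. For PSBR these were INFA (0.044), the carotenoid cleavage gene CCD1A (0.049) and the D-type cyclin gene CYCD3 (0.058), with a median distance of 0.223 to all genes. GSA-AT differed from wild type by -0.82 in the psaA deletion and by -0.69 in the psbA deletion, beside -0.82 and -0.71 for PETE. INFA gave -0.29 and -0.10, beside -0.33 and -0.09 for PSBR. Both GSA-AT and INFA were picked for closeness over these same arrays, so the likeness of their differences follows from the choice.

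Of a list of 69 symbols for other nuclear photosynthesis genes, 4 were found by symbol on the array. These were the antenna genes CAB4, CAB5 and CAB6A and the protochlorophyllide reductase gene POR2. In the psaA deletion 3 of the 4 fell, where 6.06% of all tested probe sets were called lower, and POR2 (-0.32, adjusted p = 0.147) did not pass. The median of the 4 was -0.83, next to -0.82 for the oxygen-evolving complex and plastocyanin genes. In the psbA deletion 2 of 4 fell, CAB4 (-0.68) and CAB5 (-0.66), where 5.76% of all tested probe sets were called lower. The median of the 4 was -0.49, next to -0.71. Poly-A scaling called POR2 lower too, at -0.57 (adjusted p = 0.0134) in the psaA deletion and -0.81 (adjusted p = 0.00048) in the psbA deletion. That scaling also called CAB6A lower in the psbA deletion (-0.81, adjusted p = 0.000704), where it called 67.6% of all probe sets. Between the mutants 0 of 4 passed in limma. Of them 3 were under 0.05 unadjusted, as were 17.8% of all tested probe sets. CAB4 had the largest estimate (0.52, adjusted p = 0.062). With quantile normalization CAB4 was called (0.55, adjusted p = 0.041). It was not called with array medians subtracted (0.51, adjusted p = 0.066), hybridisation control scaling (0.48, adjusted p = 0.0667) or poly-A scaling (0.28, adjusted p = 0.268).

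Other signals moved with the genotypes, and their part in the falls was not tested. The 3' minus 5' difference of control transcripts, which reports on RNA integrity, exceeded that of wild type in the psaA deletion for actin, gapdh, ef1a and ubiquitin (by 0.27 to 0.31) and lower for GlutTrans and PhyB2 (-0.12 and -0.13). In the psbA deletion it was higher for ubiquitin (0.32) and between -0.13 and 0.02 for the other 5. Of 5 markers found for meristem and dividing cells, 3 fell in the psaA deletion (CycB2, CDKB1 and CDKB2, -0.63 to -0.92), with a median of -0.63 over the 5. In that comparison 6.06% of all tested probe sets were called lower. In the psbA deletion PCNA rose (0.57) and the other 4 did not pass, with CycB2 at -0.63 (adjusted p = 0.0634), CDKB2 at -0.38, CDKB1 at -0.17, WUS at 0.06 and a median of -0.17. Of all tested probe sets 11.2% were called there in either direction. In the psbA deletion minus the psaA deletion the estimates of these 5 markers were all above 0 (median 0.46). PCNA was called (0.83, adjusted p = 0.00414 in limma), as were 3.98% of all tested probe sets. Of 5 root markers 0 passed in the psaA deletion in limma, with 1 (Nramp2) at an unadjusted p under 0.05, as were 23.8% of all tested probe sets. In the psbA deletion Nramp2 (0.47) rose and NRAMP3 (-0.48) fell, where 11.2% of all tested probe sets were called. With poly-A scaling neither rise passed (PCNA 0.08, Nramp2 -0.02, psbA deletion minus wild type), and CycB2 turned to -0.09 between the mutants. In the psbA deletion, where it called 67.6% of all probe sets, that scaling called CycB2 (-1.12), CDKB2 (-0.87), CDKB1 (-0.66) and WUS (-0.43) lower. NRAMP1 (-0.66), FRO1 (-0.62) and FER (-0.61) were called lower there too. In the psaA deletion, where it called 17.1%, it added PCNA (-0.51), WUS (-0.55) and NRAMP3 (-0.48) as lower. Between the mutants it also called NRAMP3 lower (-0.49). With quantile normalization Nramp2 (0.44, adjusted p = 0.0672) did not pass in the psbA deletion, and CDKB1 was called between the mutants (0.48, adjusted p = 0.0488). With centred values no marker's level, present or absent, could be read.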

How the data were processed

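Leaf RNA of 6 samples in 3 groups was read on 1 array each. RMA and GCRMA are named in the submitters' processing notes; versions, and which method made the deposited table, are not given in the sources used here. The deposited log2 values were normalized between arrays and centred per probe set (medians within 5e-07 of 0, range -6.13 to 3.05); centring was found from the values, and base 2 is assumed, as usual for these methods. Gene symbols came from the platform annotation of 2007, which names 909 probe sets.

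The fit left out 108 Affymetrix control probe sets. Group means of all 6 arrays were estimated in 1 linear model with lmFit and eBayes of limma 3.58.1 (R 4.3.3), with 3 residual and 5.39 prior degrees of freedom. The prior spread, estimated from all tested probe sets, thus has more weight in each SE than a gene's own replicate spread. PSBO and PSBR, whose replicate arrays lay close together, still have SEs of 0.102 and 0.101. Tests were two-sided, with Benjamini-Hochberg adjustment over 10101 probe sets and a threshold of 0.05; errors are limma's SE. The number of arrays limits precision (median SE 0.125). The fit was tested on simulated data. Plots used matplotlib 3.10.9.

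The genes, lists and tests were chosen with earlier results of these data known. All 5 genes are named, with the 3 nearest profiles of each and the photosynthesis genes found. Markers are named where they were called or where a scaling changed the call, and alternatives where a result turns on them. Of the marker lists for epidermis (3 symbols) and xylem (4 symbols), 0 genes were found by symbol. Alternatives changed the scaling, the arrays or probe sets in the fit, and the variance moderation. Genome positions and sequences are not used here.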

Additional observations from a re-analysis of the deposited data

How the results depend on the processing

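Over 17 alternatives, 1 of them (reporter probe sets left out) added after seeing the data, the count of genes called lower was 4 or 5 in the psaA deletion and 3 to 5 in the psbA deletion, and 0 genes were called between the mutants. Leaving out 1 array gave 4 in the psaA deletion and 3 to 4 in the psbA deletion. Both counts of 5 came with poly-A scaling, which also gave the 4 turned signs between the mutants: PSBO -0.0958, PsbQ -0.0664, PETE -0.136 and PSBR -0.000839, none called. Quantile normalization gave the smallest falls of PSBO (-0.60 in the psaA deletion, -0.45 in the psbA deletion), PSBP (-0.85, -0.56), PsbQ (-0.79, -0.61) and PETE (-0.67, -0.57), each still called. It was run on the centred values, so it matched the spread of deviations between arrays and not the spread of signal. The replicate numbers did not pair the arrays (correlations of same-numbered deviations 0.021, -0.0049 and -0.0086); with the replicate number as a block, 4 genes were called lower in each mutant and 0 between the mutants (PSBO in the psbA deletion: adjusted p = 0.0237).

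Over all probe sets the calls numbered 1083, 1128 and 402 for the psaA deletion, the psbA deletion and the difference between them, against 494 to 994, 509 to 842 and 115 to 266 with 1 array left out. With poly-A scaling they numbered 1725, 6832 and 966, of which 91.9%, 98.7% and 93.8% were lower, against 56.5%, 51.6% and 55.2% as deposited; with hybridisation controls the lower share was 46.2%, 49.7% and 67.7%. Among the 909 probe sets with a symbol 139, 120 and 73 were called. Using only the 4 arrays compared gave 994, 842 and 266. A filter on dim probe sets was not run, because the values hold no signal level.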
